A study of Homo sapiens with 6 samples.

Results

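Small nucleolar RNA host genes and a group of nuclear and p53- or MYC-linked long noncoding RNAs were followed by RNA-seq in HCT116 cells exposed to oxaliplatin. Members were every gene whose symbol is SNHG followed by a number, together with GAS5, NEAT1, MALAT1, PVT1, TP53TG1, LINC-PINT, EPB41L4A-AS1 and DANCR. This gave 26 of the 27942 genes in the table, of which 18 were numbered SNHG genes. The rule also names ZFAS1, which is not analysed here. HCT116 is an established human colorectal carcinoma line with wild-type p53, and oxaliplatin is a platinum drug that forms adducts on DNA. Untreated cells (NT, 3 libraries) were compared with cells kept for 24 h in 0.5 µM oxaliplatin (OXA, 3 libraries), a dose that the labels call the IC50. Both groups were the same line in the same medium, so all values describe 1 line, 1 dose and 1 time. The libraries were stranded and made from polyadenylated RNA, and the sources used here do not say whether the replicates came from separate cultures, so p-values measure the spread between these libraries.

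A small nucleolar RNA (snoRNA) guides the chemical modification of ribosomal RNA, and in human cells most are cut out of the introns of a host gene after splicing. Box C/D snoRNAs direct methylation of ribose and box H/ACA snoRNAs direct pseudouridylation. The spliced exons of a noncoding host, such as GAS5 or SNHG1, carry short reading frames and are typically removed by nonsense-mediated decay, so the level of the spliced RNA depends on transcription and on decay. Many hosts start at a cytosine followed by a run of pyrimidines, the terminal oligopyrimidine start also used by ribosomal protein genes. NEAT1 is the scaffold of paraspeckles and MALAT1 is enriched in nuclear speckles. Most MALAT1 molecules and the long NEAT1 isoform lack a conventional poly(A) tail, and poly(A) selection captures them poorly.

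The table held 0 rows for snoRNAs themselves, so only the host RNAs were measured. In the RefSeq annotation of GRCh38, 51 snoRNA genes lay inside 20 of the 26 members, counted by position because that table gives no strand. GAS5 held the most, with 11, followed by SNHG1 with 9 and SNHG17 with 5. Among hosts with a measured difference below, GAS5 carries SNORD44, SNHG26 carries SNORD93 and DANCR carries SNORA26. These are shown as examples of both classes, 5′ to 3′ on the strand of the host, with the last CTGA (the D box) of the C/D snoRNAs and the last ACA of the H/ACA snoRNA in capitals (GRCh38).
SNORD44 (chr1:173865968-173866028, minus strand): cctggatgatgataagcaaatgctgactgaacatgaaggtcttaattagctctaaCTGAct
SNORD93 (chr7:22856613-22856686, plus strand): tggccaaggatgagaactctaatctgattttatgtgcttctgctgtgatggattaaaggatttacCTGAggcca
SNORA26 (chr4:52713249-52713370, plus strand): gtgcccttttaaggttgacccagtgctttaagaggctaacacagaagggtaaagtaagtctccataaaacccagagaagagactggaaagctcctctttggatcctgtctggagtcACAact

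The start sites of hosts that changed in either fit described below are shown next, 50 bases before and 50 bases from the first base of the GENCODE canonical transcript, on the transcript strand of GRCh38, with CTTTT in capitals where it occurs.
GAS5 (chr1:173867940-173868039, minus strand): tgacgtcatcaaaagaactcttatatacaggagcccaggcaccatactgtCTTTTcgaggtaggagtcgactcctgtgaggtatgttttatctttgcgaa
SNHG26 (chr7:22854109-22854208, plus strand): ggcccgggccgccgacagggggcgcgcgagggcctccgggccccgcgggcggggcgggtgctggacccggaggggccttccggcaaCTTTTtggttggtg
DANCR (chr4:52712451-52712550, plus strand): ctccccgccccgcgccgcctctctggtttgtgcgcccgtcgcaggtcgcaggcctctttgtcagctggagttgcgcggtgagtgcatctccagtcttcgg
SNHG16 (chr17:76557725-76557824, plus strand): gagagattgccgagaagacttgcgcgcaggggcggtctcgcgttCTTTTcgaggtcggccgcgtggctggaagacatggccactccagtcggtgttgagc
SNHG1 (chr11:62855873-62855972, minus strand): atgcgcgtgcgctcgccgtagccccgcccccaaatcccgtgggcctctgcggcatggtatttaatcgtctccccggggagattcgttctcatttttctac
SNHG5 (chr6:85678699-85678798, minus strand): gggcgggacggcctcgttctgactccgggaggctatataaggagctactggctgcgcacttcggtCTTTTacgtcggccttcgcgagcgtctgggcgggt
SNHG9 (chr16:1964845-1964944, plus strand): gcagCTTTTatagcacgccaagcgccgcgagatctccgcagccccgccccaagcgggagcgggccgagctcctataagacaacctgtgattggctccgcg
In GAS5 the annotated start is the C of CTTTT itself, and in SNHG16 the motif begins 6 bases before the annotated start. In SNHG5 it begins 15 bases and in SNHG26 36 bases after the start, whereas in SNHG9 it lies 46 bases before it. The windows of DANCR and SNHG1 do not hold these letters. Over all members, 7 of 26 (26.9%) had CTTTT on the transcript strand of the window, beside 7.05% of 13675 tested genes with a canonical start. All 7 were among the 22 members tested. This count takes CTTTT anywhere in the window, so it is not a count of terminal oligopyrimidine starts. SNHG29, like GAS5, has the motif at the annotated start itself. On the other strand the motif was found in 6 of the 26 members and in 6.10% of those genes, so the higher share among members was not limited to the transcript strand. Among the 22 members that could be tested, the median log2 fold change was 0.21 for the 7 with the motif (2 below 0) and 0.0035 for the 15 without it (7 below 0). A decamer of the p53 response element was searched in 300 bases, most of them upstream, that end 50 bases after the start. It was found in 1 member, SNHG28, and in 4.83% of the tested genes. Sites outside this window were not searched.

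Library totals lay between 32979521 and 40967880 counts. The members together took between 771 and 793 CPM (counts scaled to library size) in NT and between 781 and 798 in OXA. Epithelial markers were high in every library, with EPCAM between 8451 and 10828 counts. Among markers of other cell types, PTPRC, CD3E and DCN had 0 to 2 counts, PECAM1 1 to 7, VWF 13 to 29 and COL1A1 107 to 273. NT library 1 stood apart from the other NT libraries, with a chi-square per gene of 83.1 against NT library 2 and 75.7 against NT library 3, where other library pairs within a group gave 19.2 to 29.6, and it held 6287 counts of KRT19 where the other libraries held 15095 to 33089. In bulk RNA a change in the make-up of the culture and a change of RNA per cell cannot be told apart.

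**Figure D1:**
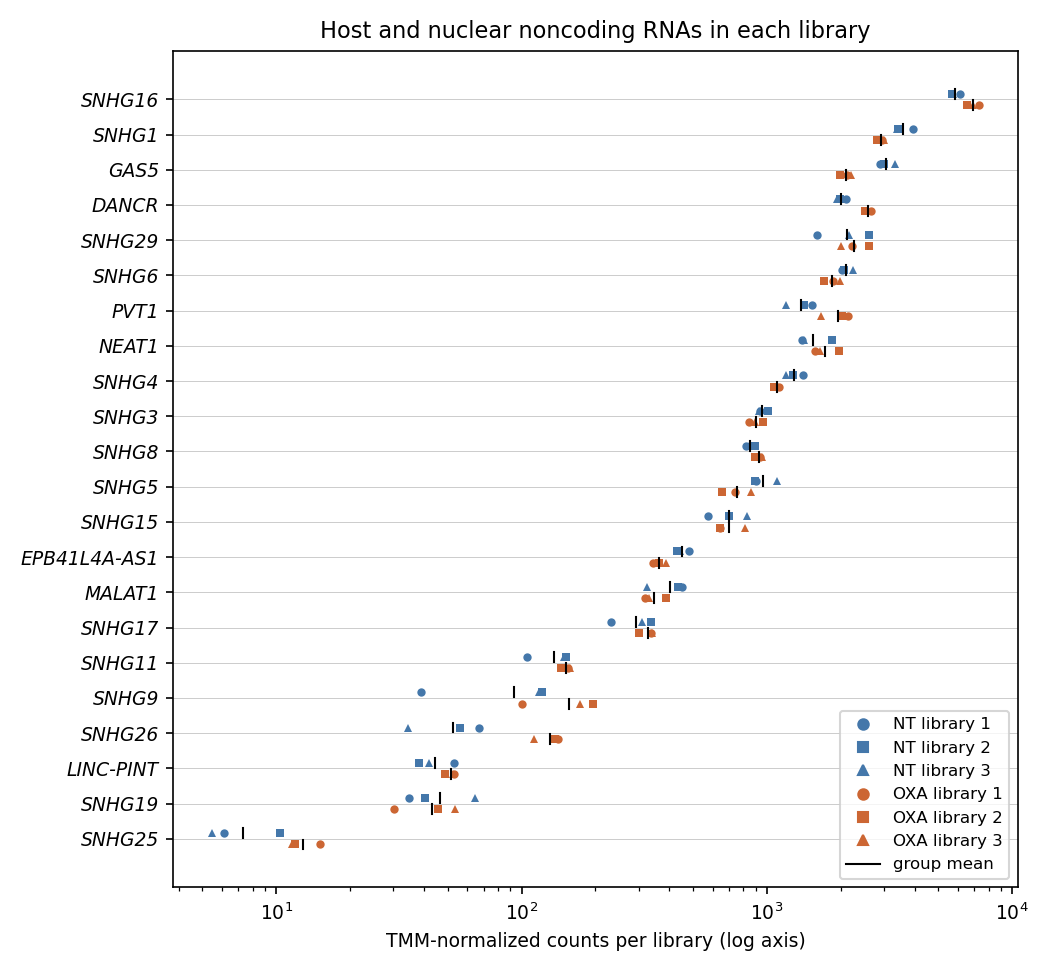
Normalized counts (log axis) of the 22 tested RNAs in each of the 6 libraries, ordered by mean level, with NT in blue, OXA in orange and a black tick at each group mean. SNHG26, PVT1 and DANCR have all OXA libraries above all NT libraries, and GAS5 has them all below.

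Of the 26 members, 22 passed the filter on low counts and were tested among 13727 genes. By the quasi-likelihood test of edgeR, p-values being adjusted over all tested genes by Benjamini-Hochberg, 1 member rose (SNHG26) and 1 fell (GAS5) at an adjusted p under 0.05, beside 2.78% of all tested genes higher and 2.29% lower. The NT and OXA libraries that share a replicate number varied together. In an edgeR fit that takes this number as a block, 5 members rose (SNHG26, DANCR, PVT1, SNHG16 and SNHG9) and 3 fell (GAS5, SNHG1 and SNHG5), where 12.1% of all genes rose and 10.9% fell. By the values alone, the groups did not overlap for 6 members that were higher in OXA and 6 that were lower, beside 14.5% and 14.4% of all tested genes. Of these, SNHG16, PVT1, SNHG8, SNHG5 and SNHG6 did overlap in the authors' own normalized values. The median log2 fold change of the 22 members was 0.11, with 13 above 0 and 9 below, and that of all tested genes was 0.023. A fold change is given with its standard error (SE).

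**Figure D2:**
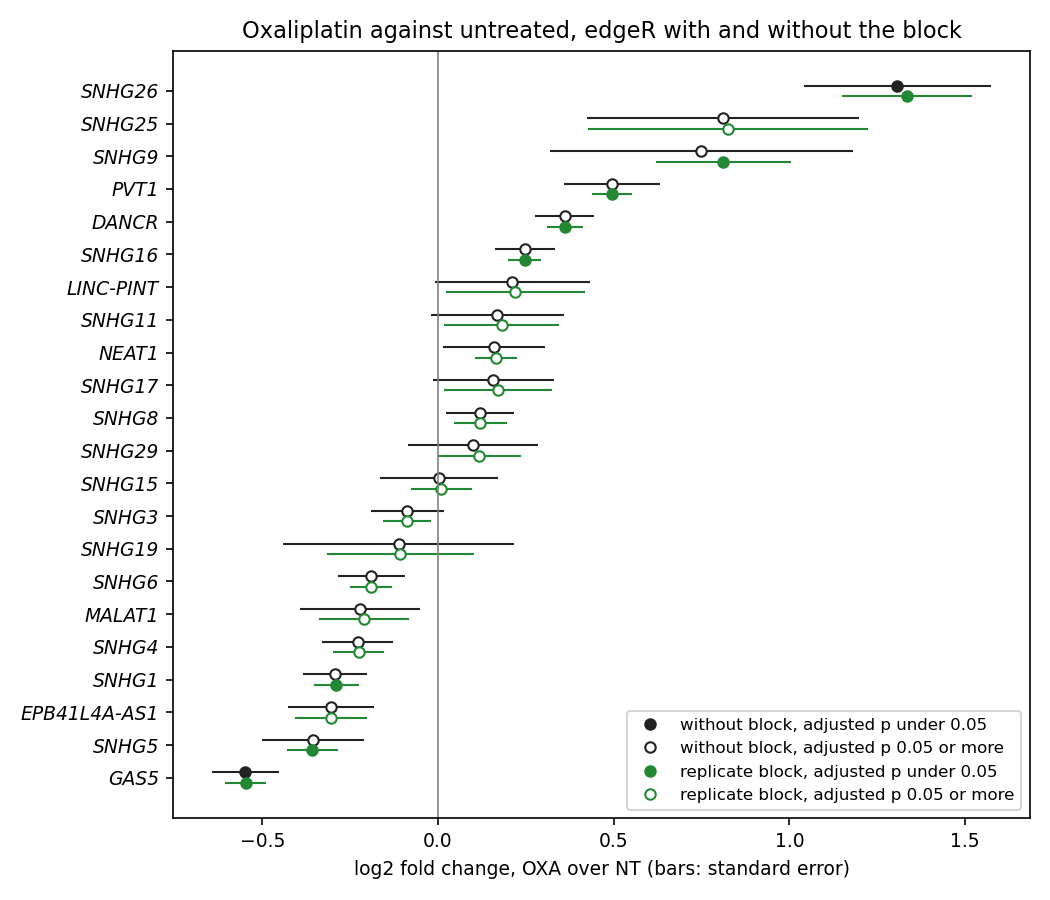
Log2 fold change of OXA over NT with its standard error for the 22 tested RNAs, by edgeR without (black) and with (green) the replicate block, and filled where the adjusted p is under 0.05. The estimates run from -0.55 for GAS5 to 1.31 for SNHG26, and the block changes the error bars more than the estimates.

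GAS5 (ENSG00000234741, chr1:173858559-173868882, minus strand), named for its accumulation in growth-arrested cells and host of the most snoRNAs here, was the member that fell furthest. Its normalized counts were 2882, 2994 and 3330 in NT libraries 1 to 3 and 2118, 1978 and 2200.1 in OXA libraries 1 to 3. All OXA values lay below all NT values. The mean went from 3068 ± 233 (SD, n = 3) to 2099 ± 112, a ratio of 0.684 and a log2 fold change of -0.55 (SE 0.094, adjusted p = 0.0214 in edgeR and 0.00447 with the block). Between libraries of the same number the log2 ratios were -0.44, -0.60 and -0.60. When 1 library was left out the edgeR adjusted p lay between 0.00718 and 0.116, and it stayed under 0.05 only without NT library 1 or without NT library 2, at fewer libraries in each fit.

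SNHG26 (ENSG00000228649, chr7:22854126-22872952, plus strand), the host of SNORD93, rose the most and was among the scarcer members. Its raw counts were 66, 54 and 38 for NT and 130, 126 and 127 for OXA, or 67.3, 55.9 and 34.6 normalized counts in NT and 140.2, 136.9 and 112.8 in OXA. The lowest OXA library was above the highest NT library by more than the range within either group. The group means were 52.6 ± 16.6 and 130.0 ± 14.97 (SD, n = 3), a 2.47-fold difference (log2 fold change 1.31, SE 0.27, adjusted p = 0.0365 in edgeR and 0.00825 with the block). The log2 ratios within numbers were 1.06, 1.29 and 1.71. With 1 library left out the edgeR adjusted p was between 0.0109 and 0.152 and was under 0.05 only without NT library 1, although the direction held in each of these fits. With the authors' own gene-specific factors as offsets, an alternative chosen after seeing the data, the edgeR adjusted p was 0.0528, and 0.00755 with the block. For GAS5 these values were 0.0249 and 0.00210.

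DANCR (ENSG00000226950, chr4:52712325-52723623, plus strand), an RNA described in undifferentiated progenitor cells and the host of SNORA26, had tight replicates. It had 2099, 1979 and 1925 normalized counts in NT and 2662, 2518 and 2529.6 in OXA. The groups did not overlap, and the gap between them was wider than either group's range. The log2 fold change was 0.36 (SE 0.084, adjusted p = 0.0531 in edgeR and 0.00916 with the block), a 1.28-fold difference. Ratios within numbers were 0.34, 0.35 and 0.39 on the log2 scale. Its adjusted p was also under 0.05 in DESeq2 (0.0463) and in edgeR without NT library 1 (0.0276), and reached 0.227 with another library left out. With the authors' factors the adjusted p was 0.122 in edgeR and 0.0175 with the block.

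PVT1 (ENSG00000249859, chr8:127794526-128187101, plus strand), the long noncoding neighbour of MYC and a known p53-responsive locus, hosts no annotated snoRNA here. Its normalized counts were 1526, 1415 and 1194 in NT and 2145, 2024 and 1663 in OXA. All OXA values were above all NT values, and library 3 was the lowest in both groups. The log2 fold change was 0.50 (SE 0.14, adjusted p = 0.0835 in edgeR and 0.00534 with the block), and within numbers the log2 ratios were 0.49, 0.52 and 0.48. DESeq2 gave an adjusted p of 0.0375, and edgeR gave 0.0317 without NT library 1 and up to 0.280 with other libraries left out. This value rests on the raw counts. The authors' normalized values divided by the raw counts gave, relative to the median gene of each library, factors of 0.766, 0.920 and 2.17 for PVT1 in NT and 0.805, 0.945 and 1.49 in OXA. The highest of these factors was 2.84 times the lowest, and a ratio as large was found in 167 of 13658 genes, where the median gene had 1.13. With those factors as offsets, PVT1 had a log2 fold change of 0.26 (adjusted p = 0.690 in edgeR and 0.106 with the block), and its groups overlapped. The origin of these factors is not given in the sources used here.

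**Figure D3:**
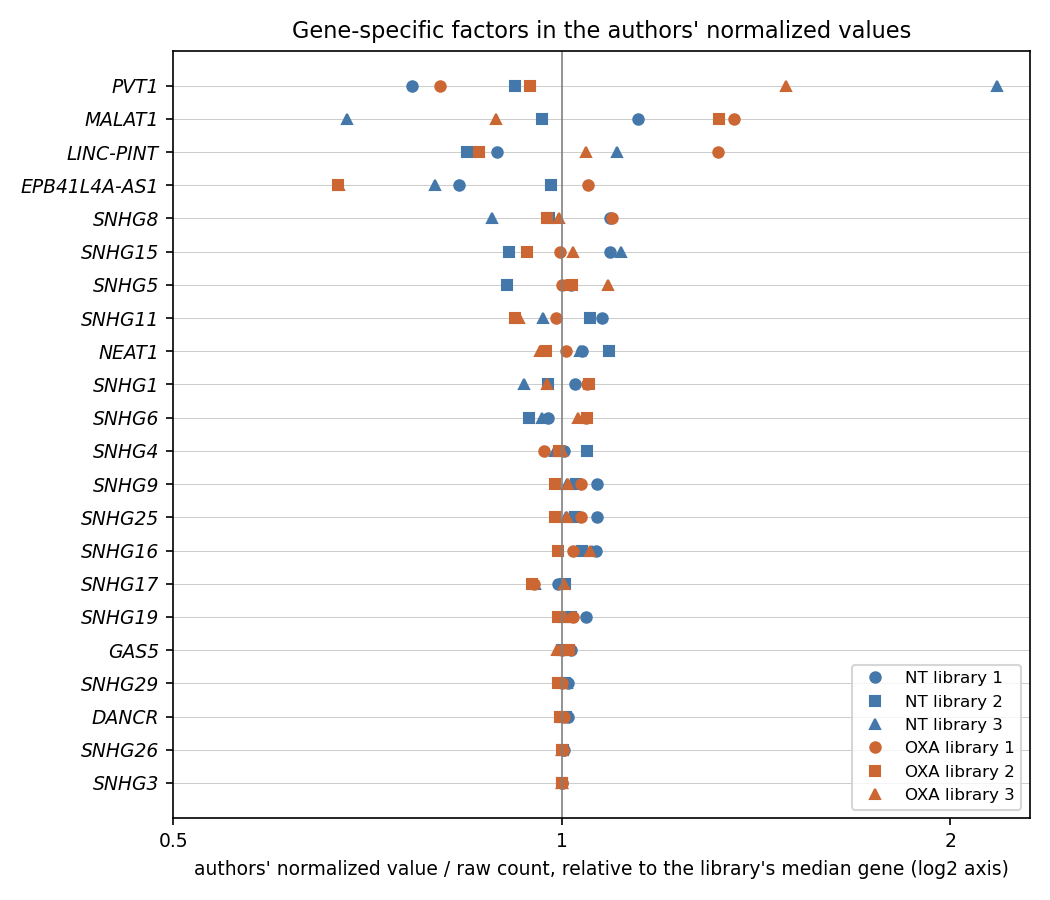
The authors' normalized value divided by the raw count, relative to the median gene of the same library (log2 axis), for the 22 tested RNAs and 6 libraries. The highest library is 2.84 times the lowest for PVT1 and 1.99 times for MALAT1, but 1.03 times for GAS5.

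SNHG16 (ENSG00000163597, chr17:76557727-76670985, plus strand), host of 3 SNORD1 snoRNAs, had the highest counts of all members. Its normalized counts were 6109, 5696 and 5726 in NT and 7341, 6539.8 and 6925 in OXA. The groups did not overlap here. In the authors' normalized values they did, with 6657 in NT library 1 and 6496 in OXA library 2. The log2 fold change was 0.25 (SE 0.084, adjusted p = 0.141 in edgeR and 0.0199 with the block), and the log2 ratios within numbers were 0.26, 0.20 and 0.27. With the authors' factors the adjusted p was 0.387 in edgeR and 0.0846 with the block.

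SNHG1 and SNHG5 stood on the other side. SNHG1 (ENSG00000255717, chr11:62851978-62855953, minus strand), host of 8 box C/D snoRNAs, had 3923, 3425 and 3391 normalized counts in NT and 2937, 2822 and 3013 in OXA. The highest OXA library lay below the lowest NT library. Its log2 fold change was -0.29 (SE 0.091, adjusted p = 0.113 in edgeR and 0.0273 with the block). SNHG5 (ENSG00000203875, chr6:85650491-85678932, minus strand), host of the SNORD50 snoRNAs, had 899.8, 889.9 and 1103 normalized counts in NT and 739.9, 655 and 864 in OXA. The groups were separated by a narrow gap, with library 3 the highest in both, and they overlapped in the authors' normalized values. Its log2 fold change was -0.36 (SE 0.14, adjusted p = 0.206 in edgeR and 0.0226 with the block). With the authors' factors the edgeR adjusted p was 0.304 for SNHG1 and 0.434 for SNHG5. In the blocked edgeR fit with those factors it was 0.0772 for SNHG1 and 0.0614 for SNHG5.

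SNHG9 (ENSG00000255198, chr16:1964895-1965509, plus strand), a short host of SNORA78 that starts beside the ribosomal protein gene RPS2, had the largest SD relative to its mean among the tested members, in NT. It had 38.7, 121 and 118 normalized counts in NT and 100.3, 195 and 173 in OXA. The groups overlapped, because OXA library 1 was below NT libraries 2 and 3. Each OXA library was nevertheless above the NT library of its number, by 1.37, 0.68 and 0.55 on the log2 scale. The log2 fold change was 0.75 (SE 0.43, adjusted p = 0.370 in edgeR), and with the block it was 0.81 (adjusted p = 0.0331 in edgeR). With the authors' factors the adjusted p was 0.401 in edgeR and 0.0374 with the block. Without NT library 1, the lowest of the 6, the log2 fold change without a block was 0.38, and with any other library left out it lay between 0.56 and 0.98.

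**Figure D4:**
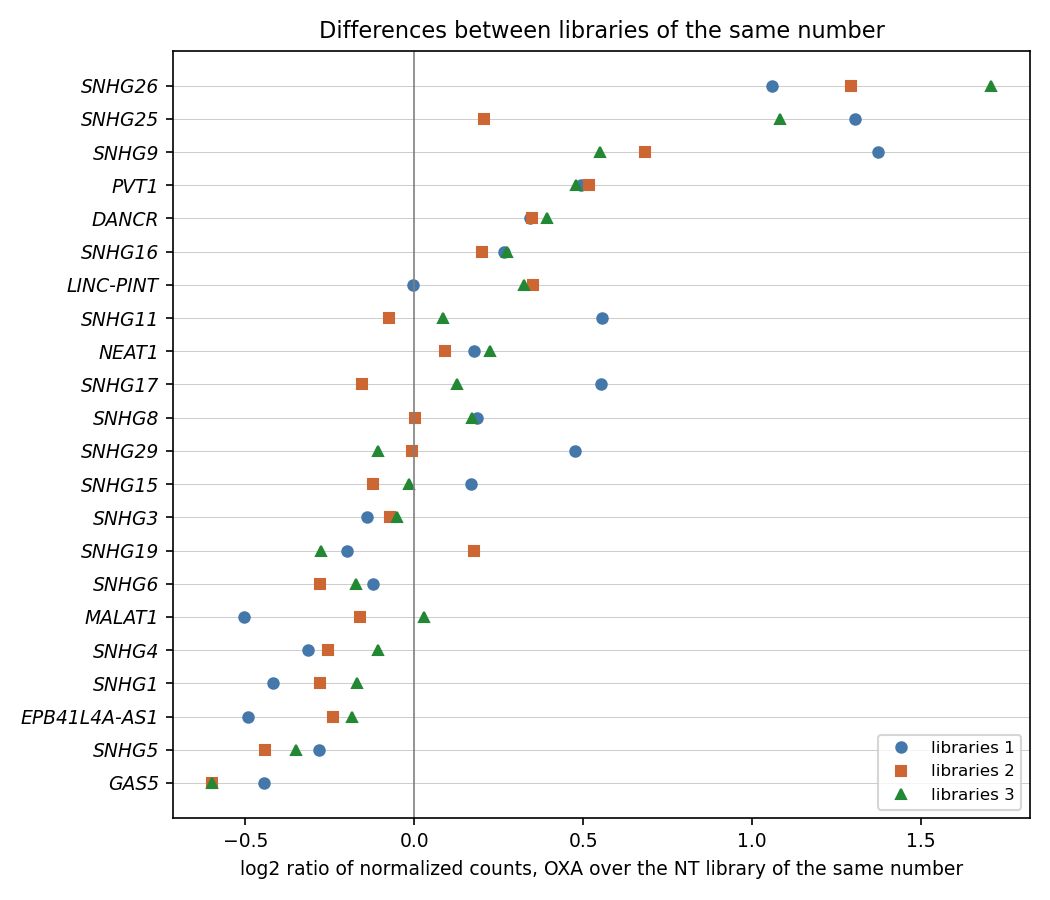
Log2 ratio of normalized counts between the OXA and NT libraries of the same number for each tested RNA. The 3 ratios of PVT1, DANCR and SNHG16 lie close together, while those of SNHG9 run from 0.55 to 1.37.

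NEAT1 and MALAT1 did not pass the test. NEAT1 had 1390.0, 1839.9 and 1410.1 normalized counts in NT and 1571, 1961 and 1649 in OXA, and the groups overlapped. Its log2 fold change was 0.16 (SE 0.14, adjusted p = 0.580 in edgeR). With 1 library left out it lay between 0.059 (without OXA library 2) and 0.27 (without NT library 2). Without NT library 1, its lowest, it was 0.089. MALAT1 had 452, 434 and 323 normalized counts in NT and 319, 388 and 330 in OXA, also with overlap. Its log2 fold change was -0.22 (SE 0.17, adjusted p = 0.507 in edgeR), and 0.080 with the authors' factors. Per kilobase of the canonical transcript NEAT1 stood at 68.0 normalized counts in NT and MALAT1 at 38.6, beside 3995 for GAS5 and 11734 for SNHG16, a scale on which poly(A) selection and the choice of isoform both count.

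LINC-PINT and TP53TG1, both linked to p53, and 3 numbered hosts had few or 0 counts. LINC-PINT, described as induced by p53, had 52.99, 38.3 and 41.8 normalized counts in NT and 52.8, 48.9 and 52.4 in OXA. The groups overlapped, at a log2 fold change of 0.21 (SE 0.22, adjusted p = 0.637 in edgeR). TP53TG1 had 1 read in OXA library 1 and 0 in the other libraries. SNHG18 and SNHG27 had 0 counts in all libraries, which allows up to 3 counts in each, or 0.0743 to 0.0909 CPM. SNHG28 had 0, 13 and 0 counts in NT and 8, 9 and 3 in OXA. These 4 were below the filter and no difference was detectable at this depth.

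Among the other hosts of high count, SNHG29 had 1593, 2611 and 2152 normalized counts in NT and 2215, 2599.8 and 1998 in OXA. The groups overlapped widely at a log2 fold change of 0.10 (SE 0.18, adjusted p = 0.806 in edgeR). SNHG6 had 2024, 2068 and 2232 normalized counts in NT and 1858, 1705 and 1981 in OXA. Its groups did not overlap here, though they did in the authors' normalized values. SNHG6 did not pass the test (log2 fold change -0.19, SE 0.096, adjusted p = 0.306 in edgeR). SNHG4, host of SNORA74A, had 1398, 1274 and 1194 normalized counts in NT and 1124, 1067 and 1108 in OXA. It too was separated between groups without passing the test (log2 fold change -0.23, SE 0.10, adjusted p = 0.237 in edgeR). EPB41L4A-AS1, host of SNORA13, had 481, 429.9 and 441 normalized counts in NT and 342, 364 and 388 in OXA, without overlap. Its log2 fold change was -0.30 (SE 0.12, adjusted p = 0.204 in edgeR and 0.0839 with the block). The remaining tested hosts, SNHG3, SNHG8, SNHG11, SNHG15, SNHG17, SNHG19 and SNHG25, had log2 fold changes between -0.11 (SNHG19) and 0.81 (SNHG25), and none passed in either fit. SNHG25 had only 6 to 14 raw counts. NT library 1 held the lowest of the 6 values for SNHG8, SNHG9, SNHG11, SNHG15, SNHG17 and SNHG29, and also for NEAT1. Without it, the median of the members went from 0.11 to -0.028 and that of all tested genes from 0.023 to -0.0037.

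Hosts of both snoRNA classes lay above and below 0. Of the 7 tested hosts with box C/D snoRNAs alone, 3 had a log2 fold change above 0 and 4 below, with a median of -0.11. Of the 9 with box H/ACA snoRNAs alone, 6 were above 0 and 3 below, with a median of 0.12. The 2 hosts of both classes were GAS5 and SNHG25. GAS5 is in this group through 1 box H/ACA snoRNA, SNORA103, beside 10 box C/D snoRNAs, all placed by position without strand. The 4 RNAs without a snoRNA had a median of 0.19. These are counts of direction, most of them of values that did not pass the test.

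Several hosts start close to a protein-coding gene on the opposite strand. Within 1000 bases, 7 members had such a neighbour, and in 5 cases both genes were tested. Distances were taken between the outermost annotated 5′ ends of the genes. For GAS5 and SNHG1 this end lies upstream of the canonical start shown above. SLC3A2, 51 bases from the outermost end of SNHG1, had a log2 fold change of 0.15 (SE 0.15, adjusted p = 0.611 in edgeR and 0.0891 with the block), where SNHG1 had -0.29. ZBTB37, 800 bases from the outermost end of GAS5 and overlapping it, had 0.078 (SE 0.12, adjusted p = 0.752 in edgeR) against -0.55 for GAS5. RPS2, which lies 54 bases from SNHG9, had 0.22 (SE 0.22, adjusted p = 0.619 in edgeR). TRAF7 beside SNHG19 had 0.21 and MKLN1 beside LINC-PINT 0.14. None of the 5 neighbours passed in either fit, and the difference between a host and its neighbour was not tested. SNHG4 shares its strand and part of its span with 1 of the 2 table entries named MATR3, the readthrough gene ENSG00000280987 (log2 fold change -0.49, adjusted p = 0.151 in edgeR and 0.0124 with the block). The more abundant MATR3 entry, ENSG00000015479, had -0.17 (adjusted p = 0.552 in edgeR and 0.128 with the block). SNHG3 likewise overlaps RCC1 (0.029) and SNHG5 overlaps ENSG00000271793 (0.26). Reads of such overlapping genes may not be separable. DANCR, GAS5, SNHG16, EPB41L4A-AS1, SNHG29, SNHG8, SNHG6, SNHG4 and LINC-PINT overlap coding genes on the opposite strand. The strand setting of the counting is not given in the sources used here. Some of these genes had more counts than the member, as MKLN1 (mean 4051 in NT) beside LINC-PINT (44.4) and LRRC75A (6323) beside SNHG29 (2118). Others had fewer, as ST6GALNAC2 (260) beside SNHG16 (5844).

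Genes for proteins that work with these RNAs, and coding genes that also host snoRNAs, were counted in 3 lists. Their values, like those of the paraspeckle list below, are of RNA, and protein was not measured in these libraries. Over all tested genes 10.7% were higher and 11.1% lower at an unadjusted p under 0.05 in edgeR, 4.43% and 4.13% passed in DESeq2, and 12.1% and 10.9% passed with the block, which are the shares to read the counts of the lists against. The genes of 19 proteins of snoRNA particles were tested, among them the methyltransferase FBL and the pseudouridine synthase DKC1. In edgeR 0 passed in either direction (3 higher and 0 lower at an unadjusted p under 0.05, 0 in DESeq2). Their median log2 fold change was 0.068. With the block 3 of 19 passed as higher and 0 as lower, namely NOLC1 (0.21), the assembly ATPase RUVBL1 (0.28) and NOP10 (0.28). Of 20 nonsense-mediated decay factors, 0 passed in edgeR (1 higher and 0 lower unadjusted, 0 in DESeq2), with a median of 0.043. With the block 1 of 20 passed in each direction, SMG9 (0.44) and EIF4A3 (-0.17), and the helicase UPF1 had a log2 fold change of 0.16 (adjusted p = 0.733 in edgeR). Of 24 protein-coding snoRNA hosts, 0 passed in edgeR (1 higher and 1 lower unadjusted, 1 lower in DESeq2), with a median of 0.037. With the block 2 of 24 passed as higher, WDR43 (0.42) and EIF4G2 (0.22), and 1 as lower, CWF19L1 (-0.51). No test of a list was made.

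Of 18 tested genes for paraspeckle proteins, 13 had a log2 fold change below 0 and the median was -0.11, beside 0.023 over all genes. In the other lists 5 of 19 snoRNA particle genes, 7 of 20 decay factors and 6 of 24 coding hosts were below 0. The highest in the paraspeckle list was ZNF335 (log2 fold change 0.45, adjusted p = 0.421 in edgeR and 0.0561 with the block). None passed in edgeR (0 higher and 4 lower at an unadjusted p under 0.05, 1 lower in DESeq2), and the lowest adjusted p was 0.0564, for NUDT21 (log2 fold change -0.48). With the block 6 of 18 fell and 0 rose in edgeR, where 10.9% of all tested genes fell, and at an unadjusted p 11.1% of all genes were lower. Among them were NUDT21 and CPSF6, subunits of the cleavage factor that sets poly(A) sites, the core proteins NONO and SFPQ, and the cold-inducible RNA-binding protein CIRBP. NONO went from 30983 ± 1601 (SD, n = 3) normalized counts in NT to 27225 ± 1859 in OXA. PSPC1, the third core protein, had a log2 fold change of 0.078 (adjusted p = 0.741 in edgeR), beside 0.16 for NEAT1, the RNA they bind.

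**Figure D5:**
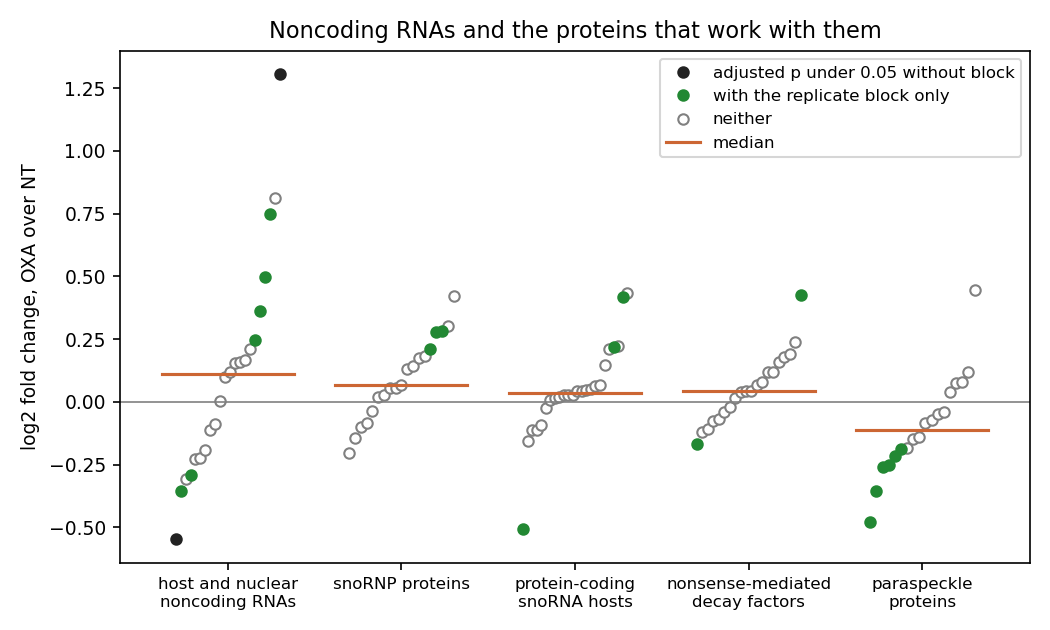
Log2 fold change of RNA for every tested gene, OXA over NT, in the noncoding RNAs and in 4 lists of protein-coding genes, with a line at each median. The noncoding RNAs spread from -0.55 to 1.31. The genes for paraspeckle proteins run from -0.48 to 0.45, with 13 of 18 below 0.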

How the data were processed

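Poly(A) RNA-seq of HCT116 cells gave 3 NT and 3 OXA libraries. Groups and replicate numbers were taken from the labels. The authors deposited a raw count and a normalized signal for each gene and library. The study's methods state mapping with STAR to GRCh38 and normalization with DESeq2. The submitters' processing notes list Trimmomatic 0.32, STAR 2.7.5b, RSEM 1.3.3 and DESeq2 2.13. The counting step, its annotation and its strand setting are not given in the sources used here. The deposited counts are integers and entered the fits without change. The authors' normalized signal equals the count times a factor that differs between genes and libraries, and was used only in an alternative.

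Genes were filtered with filterByExpr (minimum count 10, minimum total count 15), scaled by TMM and compared by the quasi-likelihood test of edgeR 4.0.16 in R 4.3.3, and p-values were adjusted by Benjamini-Hochberg over every tested gene. Normalized counts are counts scaled to a common effective library size. The steps were tested on simulated data. The members and lists were chosen with earlier results of these data known, so no list is independent support. Values per library are given for members under an adjusted p of 0.05 with or without the block, for those the rule names by symbol and for the 5 numbered SNHG genes of highest count. Some list genes that the rules select are not reported here. Deviations from the group means correlated at 0.48, 0.47 and 0.26 between NT and OXA libraries of the same number and at -0.41 to 0.076 between different numbers. The numbers come from the labels, which do not say what they stand for. Positions are from GENCODE release 44, snoRNA genes from RefSeq, both on GRCh38. PCR duplicates were not distinguishable, so counting limits cover counting error only. Alternatives were other normalizations, filters, DESeq2 1.42.0, voom in limma 3.58.1, a fold cutoff, the block, numbered SNHG genes alone and each library left out.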

Additional observations from a re-analysis of the deposited data

How the results depend on the processing

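The count of members that rose in OXA was 1 in edgeR, 3 in DESeq2, 5 with the replicate block, 0 with the authors' gene-specific factors as offsets and 3 with those factors and the replicate block together, the last 2 settings chosen after seeing the data. Over all tested genes the matching counts were 381, 608, 1664, 241 and 1319. The count that fell was 1 in edgeR and 3 with the replicate block, beside 315 and 1493 of all tested genes. It was 0 among numbered SNHG genes alone, which leave out GAS5. With a fold change over 1.5 also required it was 0, as GAS5 (ratio 0.684) fell short. The matching count over all tested genes was not made at that cutoff. With each library left out in turn, 0 to 3 members rose and 0 to 1 fell. Over all tested genes the same fits gave 66 to 623 higher and 19 to 571 lower, both fewest without OXA library 1 and most without NT library 1. In these fits the median log2 fold change of the members lay between -0.028 and 0.12, and in DESeq2 on all libraries it was 0.13. The low end was the fit without NT library 1, which also gave the 3 that rose. MALAT1 turned from -0.22 to 0.080 with the authors' factors and to 0.13 with those factors and the replicate block. SNHG29 ranged from -0.068 to 0.25 over the libraries left out. The causes were not tested, except that fits with a library left out have fewer samples. Over the named members, 213 alternative values kept direction and side of the threshold, 12 passed it where the edgeR value did not, 10 lost it and 4 turned. Among the tested members and the coding neighbours within 1000 bases, the replicate block changed the calls of the 6 members named in the report and no other. The count of lower genes in the paraspeckle list went from 0 to 1 with upper-quartile factors, library totals, no filter, DESeq2 or the authors' factors. It was 2 without NT library 1, 6 with the block and 4 with the block and those factors. The count of coding hosts that fell went from 0 to 1 in DESeq2, with upper-quartile factors, library totals or the block. Over all tested genes, 315 were lower in edgeR, 493 with upper-quartile factors, 511 with library totals and 347 with no filter. There were 567 in DESeq2, 571 without NT library 1 and 200 with the authors' factors. The block gave 1493, and 1167 with those factors. Counts near 10, as for SNHG25, limit what can be seen.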
